A study of Rattus norvegicus with 6 samples.

Results

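The genes of the AP-1 transcription factor were followed through ChIP-seq peak lists of PC12 cells, a rat pheochromocytoma line derived from the neural crest. The 8 genes, Fos, Fosb, Fosl1, Fosl2, Jun, Junb, Jund and Atf3, were taken by symbol from the authors' table of α1ACT-only peaks. The rule goes by name, but the genes were proposed with earlier results of these data known. Of the 8, 6 had rows there, 60 of the table's 159452 peaks in all, and Junb and Fosl1 had none. The cells, at passages 18 to 20, carried either the pCDNA3 vector (EV) or human α1ACT, a transcription factor encoded within CACNA1A, in stable form; the labels title the second line Q11 and do not say how many clones either line holds. From each line came a precipitate with M2 (an anti-FLAG antibody), a precipitate with an antibody labelled 1804, whose target the labels do not name, and an input, 1 library each. The series' design text speaks of tissues at day 3, whereas the sample labels name PC12 cells. With 1 library per group, nothing below has a replicate error or a test between conditions.

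AP-1 is a dimer of basic leucine zipper proteins. Jun proteins pair with each other or with Fos proteins, Fos proteins need a Jun partner, and Atf3 can join Jun proteins. Many of these genes are immediate early genes, switched on within minutes by growth factors, depolarisation or stress without new protein synthesis, through serum response factor and CREB bound at their promoters. In PC12 cells nerve growth factor is a classical inducer of Fos and Jun.

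A peak here is a 56 bp interval of the α1ACT 1804 list, on rat build rn5, written 1-based. Its signal is the authors' own value, used below to order peaks within that list. A peak within 1000 bp of the transcription start site (TSS) of the gene that the authors assigned it to, the gene with the nearest TSS, is called near the TSS. Across the table the signal had a median of 3.02, and peaks near a TSS had a median of 4.36. The highest −log10 q-value, 3.89, was a ceiling shared by 7.08% of the peaks. Read depth is unknown.

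All 6 genes with rows had a peak near the TSS, and they divided by signal. Jund and Fosl2 had strong peaks there, Fos had peaks of middling signal, and Fosb, Jun and Atf3 had weak ones. The highest signal near the TSS was 19.5 for Jund, 11.7 for Fosl2, 4.78 for Fos, 2.99 for Fosb, 2.63 for Jun and 2.45 for Atf3. Among the 6219 genes of the table with a near-TSS peak, whose median highest signal was 4.92, these stood at percentiles 99.8, 95.9, 48.0, 17.5, 10.2 and 7.62. Whether neighbours in this order differ could not be tested, since there is no second library.

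**Figure D1:**
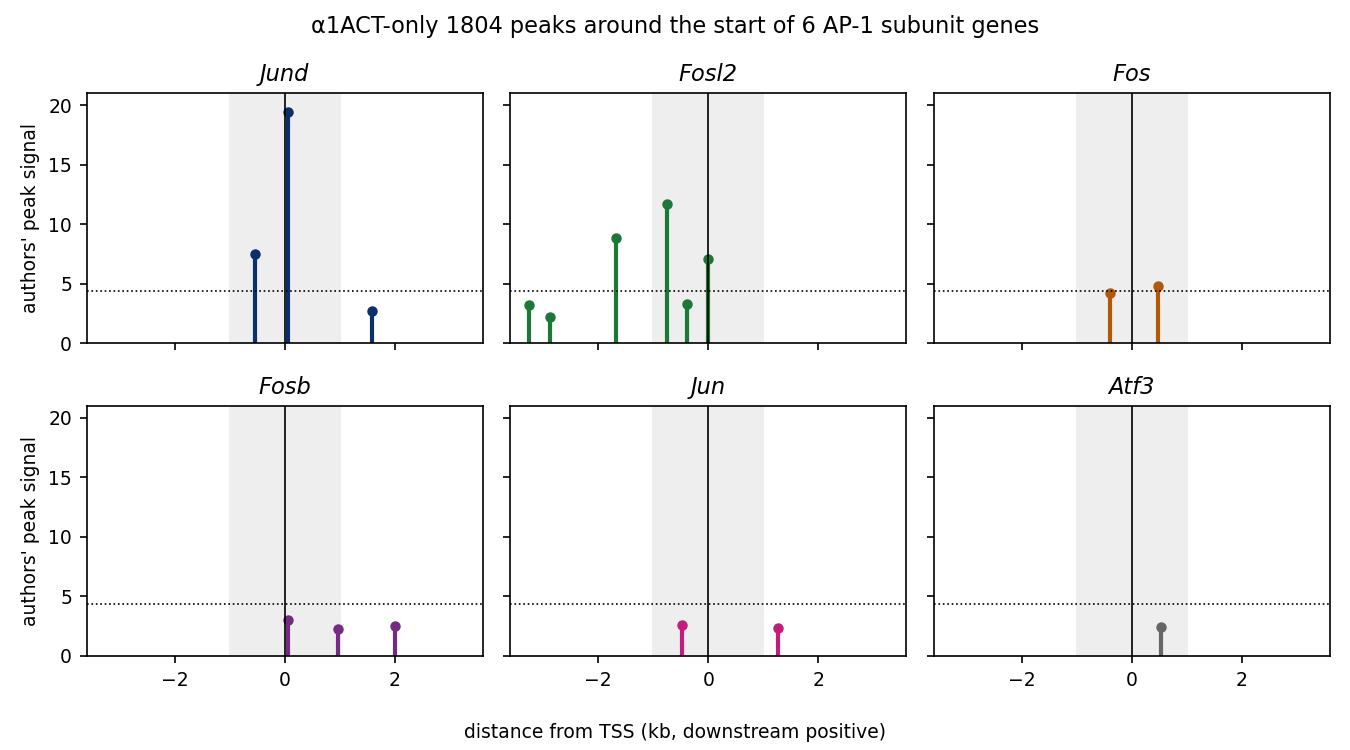
Peaks around the start of the 6 genes: the x axis is the distance of the peak's centre from the TSS in kb with downstream positive, the y axis the authors' signal, each stem 1 peak, the grey band the 1000 bp on either side and the dotted line the median of all near-TSS peaks (4.36). Jund reaches 19.5 just downstream of its start, Fosl2 has a row of peaks on the upstream side, and Fosb, Jun and Atf3 stay under the dotted line.

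The promoters of 4 genes are printed to set the strong, weak and absent peaks beside the bases at the gene start: Jund and Fosl2 (strongest), Fosb (weak) and Junb (no row). Each is the 250 bases before the start given by RefSeq, on build GRCr8, on the gene's strand. They come from another build than the peaks, so no peak position was transferred to them. The promoter table used here matched 5 of the 8 genes, the fifth being Fosl1; Fos, Jun and Atf3 are named only. Capitals mark the motif matches described in the following paragraph.
Jund, chr16:18769772-18770021, minus strand: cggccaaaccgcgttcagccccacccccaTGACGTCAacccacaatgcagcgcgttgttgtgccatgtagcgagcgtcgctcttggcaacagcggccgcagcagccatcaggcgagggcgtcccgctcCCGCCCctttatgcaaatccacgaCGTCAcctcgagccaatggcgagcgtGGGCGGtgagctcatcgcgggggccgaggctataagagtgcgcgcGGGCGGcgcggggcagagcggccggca
Fosl2, chr6:30039270-30039519, minus strand: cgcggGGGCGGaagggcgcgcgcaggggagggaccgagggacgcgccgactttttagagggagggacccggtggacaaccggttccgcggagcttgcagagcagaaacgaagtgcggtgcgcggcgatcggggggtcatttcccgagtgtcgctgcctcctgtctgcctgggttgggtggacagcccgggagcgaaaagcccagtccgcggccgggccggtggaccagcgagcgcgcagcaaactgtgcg
Fosb, chr1:88089185-88089434, minus strand: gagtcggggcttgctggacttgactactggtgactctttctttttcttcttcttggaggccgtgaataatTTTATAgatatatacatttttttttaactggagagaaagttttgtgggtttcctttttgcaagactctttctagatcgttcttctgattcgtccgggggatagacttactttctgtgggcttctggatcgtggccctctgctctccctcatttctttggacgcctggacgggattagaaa
Junb, chr19:40080876-40081125, plus strand: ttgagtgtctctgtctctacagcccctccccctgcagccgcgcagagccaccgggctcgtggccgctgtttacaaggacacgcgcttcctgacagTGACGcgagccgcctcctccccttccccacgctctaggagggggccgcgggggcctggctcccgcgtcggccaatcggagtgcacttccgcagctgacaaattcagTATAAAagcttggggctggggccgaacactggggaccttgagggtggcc

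Motifs were searched on both strands: the AP-1 site TGACTCA, the cyclic AMP response element (CRE) TGACGTCA, the CRE core TGACG, the GC box GGGCGG, the TATA box TATAAA, the E-box CACGTG and the CArG box, the binding element of serum response factor. A full CRE holds 2 overlapping cores. Jund alone of the 5 held a full CRE, 221 to 214 bases before the start, a word found in 1.59% of 33469 promoters of that length. That set is larger than the 15165 protein-coding genes with a promoter sequence used below, and is not limited to them. Jund also held 1 further CRE core, 98 to 94 bases before the start, and 3 GC boxes. Fosl2 held 1 GC box, 245 to 240 bases before the start, Fosl1 1 GC box and 2 CRE cores, Junb 1 CRE core and a TATA box 49 to 44 bases before the start, and Fosb only a TATA box on the opposite strand. The CRE core was in 18.2% of all promoters, the GC box in 30.5% and the TATA box in 12.9%. None of the 5 windows held the AP-1 site (4.05% of all promoters), the E-box (5.59%) or the CArG box (501 promoters). These are matches of letters and say nothing of what binds.

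Jund encodes the Jun family member that many cells express steadily. Its gene, on chromosome 16 from 20342096 to 20343775 on the minus strand, had 4 peaks, the farthest 6038 bp from the TSS. The strongest, from 20343684 to 20343739, covered bases 36 to 91 after the TSS and had a signal of 19.5, rank 69 of all 159452 peaks and rank 13 of the 9175 peaks near a TSS. A second near-TSS peak, from 20344279 to 20344334, lay 504 bp upstream with a signal of 7.51, above 97.5% of the table. The other peaks were weaker: 2.72 at 1568 bp downstream, within a gene 1680 bp long, and 3.96 at 6038 bp upstream. Both near-TSS peaks had the ceiling q-value, and neither of the farther ones did.

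Fosl2 encodes Fra-2, a Fos family member that lacks the transactivation domain of Fos. Its gene lies on chromosome 6 from 35422541 to 35440258, minus strand; 22 peaks were assigned to it, and 89.6% of the table's 14390 genes had that many or fewer. Near the TSS there were 3: one across the start itself, from 35440231 to 35440286 and reaching from 28 bases before it to 27 after, with a signal of 7.05; one 358 bp upstream with 3.34; and the strongest, from 35440983 to 35441038 and 725 bp upstream, with 11.7, rank 642 in the table. Having 3 or more near-TSS peaks was true of 9.58% of the genes with any. The row went on upstream, with 8.85 at 1640 bp, 2.21 at 2843 bp and 3.24 at 3236 bp, which made 6 peaks in 3.32 kb when peaks with gaps of up to 2000 bp are joined. Runs of 6 or more peaks held 27.9% of all peaks in the table. Those runs were joined over all peaks of a chromosome, whatever their gene, whereas the run here was joined over Fosl2 peaks only.

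A second, denser run assigned to Fosl2 lay far from it, inside another gene. On chromosome 6 from 35561910 to 35567612, 121.7 to 127.3 kb upstream of the Fosl2 TSS, 11 peaks stood in 5.70 kb. Their signals ran from 2.42 to 8.01 with a median of 2.80, so that 1 peak, 123.9 kb upstream, stood out. The authors' annotation places these 11 peaks, and 2 more at 84.1 and 195.7 kb upstream, in introns of Bre (Babam2), which encodes a subunit of the BRCA1-A complex. Bre had 6 assigned peaks of its own, including one over its TSS with a signal of 9.92. The assignment to Fosl2 thus rests on the nearest TSS alone. Runs of 11 or more peaks, again joined over all peaks of a chromosome whatever their gene, numbered 736 in the table and held 5.98% of its peaks. The lengths and gaps of runs were chosen after their values were seen.

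Fos encodes the founding Fos protein, among the fastest immediate early genes. It lies on chromosome 6 from 116249742 to 116252608, minus strand, and had 9 peaks, of which 2 were near the TSS and on either side of it. The downstream one, from 116252103 to 116252158 at 450 bp, had a signal of 4.78, and the upstream one, from 116252977 to 116253032 at 369 bp, 4.22. These bracket the median of 4.36 for near-TSS peaks. The strongest Fos peaks were farther away: 7.60 at 12.5 kb downstream and 6.98 at 18.7 kb upstream, both with the ceiling q-value, then 4.80 at 25.6 kb downstream. The remaining 4 distal peaks, from 14.4 kb upstream to 39.5 kb downstream, had signals of 2.16 to 2.80, in the lower part of the table.

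Fosb encodes FosB and its truncated form ΔFosB, which accumulates in neurons under repeated stimulation. The gene, on chromosome 1 from 81481174 to 81487900, minus strand, had 6 peaks. The near-TSS peaks were weak: 2.99 from 81487813 to 81487868, covering bases 32 to 87 after the start, and 2.25 at 940 bp downstream. A further 2 lay in the gene, 2.51 at 1982 bp and 2.43 in the 3' UTR at 4987 bp. Its strongest peak was intergenic, 17.1 kb upstream, with a signal of 6.82 and the ceiling q-value, and another at 8.13 kb upstream had 3.88. The Fosb peak at base 32 and the Jund peak at base 36 lie at nearly the same place relative to the TSS and differ 6.50-fold in signal within the list.

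Jun encodes c-Jun, the main partner of Fos proteins. It lies on chromosome 5 from 117957730 to 117960823, minus strand, and had 15 peaks, none of which reached the ceiling q-value. The single near-TSS peak, from 117961271 to 117961326 and 448 bp upstream, had a signal of 2.63, below the table's median, and a peak 1236 bp downstream had 2.37. The other 13 were intergenic. Downstream of the gene 11 of these lay between 20.2 and 62.4 kb from the TSS, 6 of them in a run of 4.07 kb from 117907561 to 117911629 with signals of 2.34 to 4.29. The strongest Jun peak was 103.3 kb upstream with 4.90, and one 131.0 kb upstream had 4.02. The 15 Jun peaks spread over 193.5 kb and had a median signal of 2.91, with 5 of them above the table's median of 3.02. Of the table's genes, 84.6% had that many peaks or fewer.

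Atf3, which encodes a stress-induced member of the ATF/CREB family and AP-1 partner, lies on chromosome 13 from 114411693 to 114443432, minus strand. It had 4 peaks. The near-TSS peak, from 114442872 to 114442927, began 505 bp into the gene; its signal of 2.45 exceeded 23.4% of the table. The other 3 lay upstream, 2.77 at 21.7 kb, 3.18 at 22.6 kb and 5.66 at 30.9 kb, so that signal was highest at the farthest peak.

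**Figure D2:**
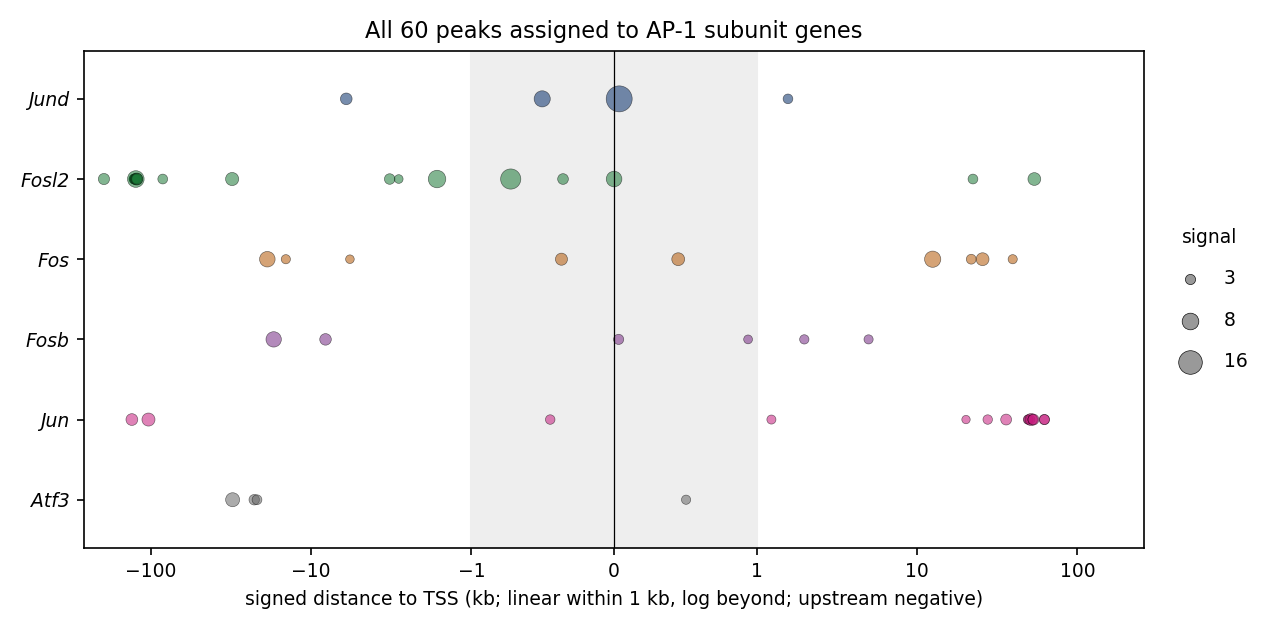
All 60 peaks by gene: the x axis is the signed distance to the TSS in kb, linear within 1 kb (grey) and logarithmic beyond, and the area of each point is the authors' signal. Jund and Fosl2 have their largest points in or beside the grey band, whereas the largest points of Fos, Fosb, Jun and Atf3 lie outside it.

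For Jund and Fosl2 the peak of highest signal was near the TSS, and for the other 4 genes it lay farther away, between 12.5 and 103.3 kb. Among the 4854 genes of the table with both a near-TSS and a farther peak, the highest was near the TSS in 52.3%. Taking the 60 peaks together, 30 were distal intergenic (50.0%, against 74.6% of the table), 16 in promoters as the authors define them, 13 in introns and 1 in a 3' UTR. Their median distance to the TSS was 24.1 kb, against 119.0 kb in the table. The median signal was 2.99 against 3.02, and for the 11 near-TSS peaks 4.22 against 4.36. The ceiling q-value was reached by 9 of the 60 (15.0%, against 7.08% of the table): 4 of Fosl2, 2 of Jund, 2 of Fos and 1 of Fosb. Of the 11 near-TSS peaks, 6 lay over or downstream of the start and 5 upstream, where 66.6% of all near-TSS peaks lay over or downstream. Peaks of 1 gene share a locus and are not independent.

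Junb and Fosl1 encode a Jun protein often opposed to c-Jun in activity and the Fos protein Fra-1. Both are absent from the table, and whether the authors' gene set held them is not given in the sources used here. Their positions on rn5 are therefore unknown, but the order of genes in RefSeq (GRCr8) names their neighbours. Junb stands between Rnaseh2a and RGD1564093, with Prdx2, Hook2, Best2 and Get3. On rn5 the interval between those flanking genes on chromosome 19, from 37060302 to 37118343, held no whole peak; 1 peak over the Rnaseh2a TSS, from 37060266 to 37060321, crossed its lower edge. With its margins the stretch free of peaks was 58.4 kb, and 8.14% of gaps between neighbouring peaks in the table were as long. This is a share of gaps, whose median was 2.98 kb and mean 18.0 kb, and not of sequence. Long gaps hold a larger share of the sequence, so a gene falls in one more often than 8.14% of the time. That share was not computed. Fosl1 stands between Drap1 and Fibp, with Bles03 and Ccdc85b. On chromosome 1 between 227735764 and 227769466 there were 2 peaks, from 227765259 to 227765314 with a signal of 2.82 and from 227765828 to 227765883 with 9.98, above 99.2% of the table, and 1 more over the Fibp TSS crossed the upper edge. The authors assigned the first 2 to Fibp, as 4.21 and 3.64 kb upstream of its TSS, and annotated them as downstream of a gene that the annotation does not name. Whether either lies at Fosl1 could not be determined.

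The table of α1ACT-only peaks holds none shared with EV: none of its rows overlapped a peak of either EV list, whereas 179 of the 272 EV 1804 peaks and 149 of the 244 EV M2 peaks overlapped α1ACT 1804 peaks that it leaves out. That no row of the 6 genes overlaps an EV peak is therefore set by how the table was made. The distance from these rows to the complete lists is not. Lists of few peaks can leave long distances at most places, and the distance for all rows of the table was not computed. Whether the distances below are particular to the 6 genes is therefore not known. The nearest peaks were 1.19 Mb away for the EV 1804 list (from a Fosl2 peak), 1.27 Mb for the EV M2 list (from a Jund peak) and 8.51 Mb for the α1ACT M2 list (from a Fos peak). The 2278 α1ACT 1804 peaks that the table leaves out came no nearer than 1.19 Mb either. They include those that overlap EV peaks, so this distance is not independent of those above. How many of the 2278 overlap an EV peak was not counted, and why the others were left out is not given. Of the 81 α1ACT M2 peaks, 72 overlapped left-out peaks and 1 overlapped a row of the table, which was not a row of the 6 genes. The other lists are short, with 272, 244 and 81 peaks against 161730 in the α1ACT 1804 list, and their lowest signals were 14.0, 19.0 and 53.6. Only the Jund peak of 19.5 was above the lowest signal of either EV list, and none of the 60 was above that of the α1ACT M2 list. How signal scales between libraries is not stated. Absence from the EV and α1ACT M2 lists therefore cannot be told apart from a higher limit for listing there.

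**Figure D3:**
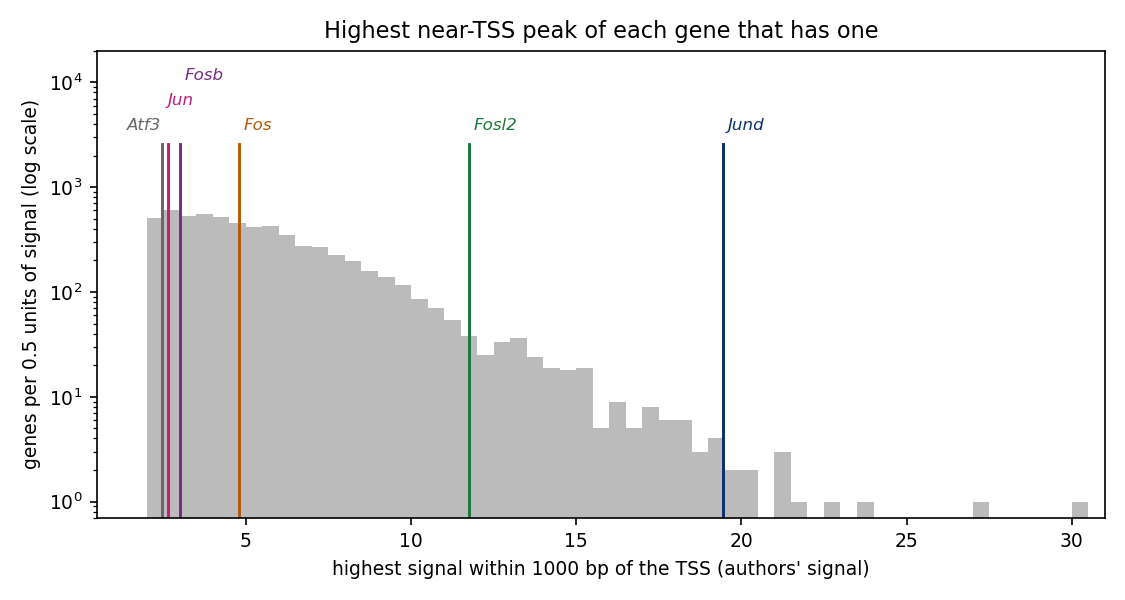
Highest near-TSS signal of each of the 6219 genes with a near-TSS peak: the x axis is the authors' signal, the y axis the number of genes per 0.5 units on a log scale, and the vertical lines mark the 6 AP-1 subunit genes. Jund (19.5) lies in the upper tail, Fosl2 (11.7) on the falling slope, Fos (4.78) by the median and Fosb, Jun and Atf3 (2.45 to 2.99) at the low end.

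Set against all genes, 6 of the 8 AP-1 subunit genes carried a near-TSS peak (75.0%, exact Clopper-Pearson 95% interval 34.9 to 96.8), where 32.9% of 18539 protein-coding genes did. With any assigned peak counted, the members again had 6 of 8, close to the 74.7% of all protein-coding genes. Among genes with an assigned peak 44.0% had one near the TSS, against 6 of 6 members. For near-TSS peaks in the upper 10% by signal the count was 2 of 8 (Jund and Fosl2), against 15.1%. The median highest near-TSS signal of the 6 genes was 3.89, below the 4.92 of all genes with such a peak. These intervals cover counting error only. Just inside the 1000 bp limit were the Fosb peak at 940 bp (2.25) and the Fosl2 peak at 725 bp (11.7), and just outside the Jun peak at 1236 bp (2.37) and the Jund peak at 1568 bp (2.72).

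Other genes of the AP-1 network were counted in the same way. Among other AP-1 and related leucine zipper genes, 9 of 14 (64.3%, 35.1 to 87.2) had a near-TSS peak, led by Atf4, the effector of the integrated stress response, with a signal of 15.0 at 167 bp downstream, and Atf7 with 12.6. Maf, Mafk and Maff had near-TSS peaks with highest signals of 2.21 to 2.44. The AP-1 partners Batf and Jdp2 had peaks but none near the TSS, and Batf2, Batf3 and Mafa had none at all.

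Regulators upstream of AP-1 had a near-TSS peak in 15 of 24 (62.5%, 40.6 to 81.2); Ep300 was not among the background genes. Mapk8, which encodes JNK1, a kinase that phosphorylates Jun, had a signal of 11.4 at 182 bp upstream of the TSS. Of the genes for the other JNK proteins, Mapk9 had a near-TSS peak of 8.02, and Mapk10 had 4 assigned peaks but none near the TSS. Of those for the kinases that activate JNK, Map2k7 had a near-TSS peak of 7.35, and Map2k4 had 28 assigned peaks but none near the TSS. Serum response factor, Srf, had 3 near-TSS peaks up to 3.80, and Creb1 had 1 of 3.15.

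Of genes known as AP-1 targets, 5 of 20 (25.0%, 8.66 to 49.1) had a near-TSS peak. That interval holds the 32.9% of all protein-coding genes. With any assigned peak counted, the targets had 19 of 20, against 74.7% of all protein-coding genes. Those with a near-TSS peak were led by Th, the rate-limiting enzyme of catecholamine synthesis, with 8.79 at 29 bp downstream, and Sqstm1, an autophagy receptor, with 8.63. None of Mmp3, Mmp9, Mmp10 and Mmp13, matrix metalloproteinases, had a near-TSS peak although all had assigned peaks, and Mmp1 had no peak. Other immediate early genes had one in 22 of 30 (73.3%, 54.1 to 87.7), led by the phosphatase Dusp1 with 15.6 over its TSS and Klf10 with 10.1. Within that list the Egr and Nr4a genes had 5 of 7 and the 5 Dusp genes 5 of 5. Chromaffin and sympathetic markers, which fit the labelled cell type, had 7 of 13 (53.8%, 25.1 to 80.8), and some of them are also in the lists above; peaks do not measure expression, so the cell type could not be checked. Differences between lists were not tested.

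**Figure D4:**
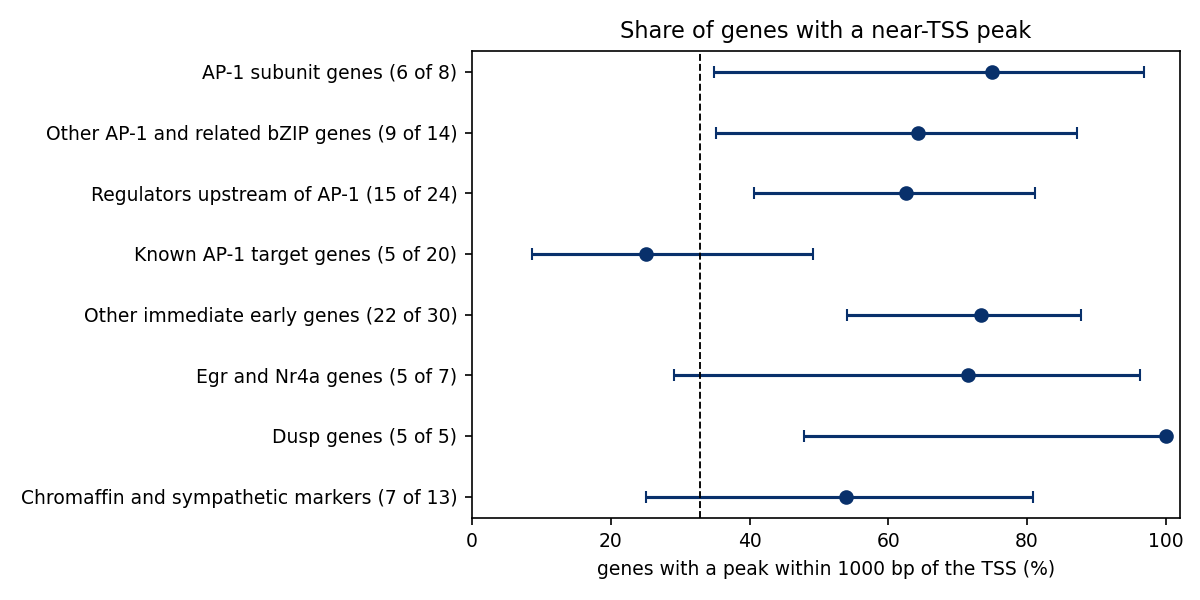
Share of genes with a near-TSS peak for each list: the x axis is the percentage of genes, points are shares with the number of genes in the label, bars exact 95% binomial intervals, and the dashed line the 32.9% of all protein-coding genes. Every list but the AP-1 targets (25.0%) sits to the right of the line, the AP-1 subunits at 75.0% and other immediate early genes at 73.3%. The intervals of the targets, of the Egr and Nr4a genes and of the chromaffin and sympathetic markers cross the line.

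The genes outside these lists most like Jund, by highest near-TSS signal, number of near-TSS peaks and number of assigned peaks, were Polr3e (18.8), Ulk2 (21.5) and Mmp14 (17.4), each with 2 near-TSS peaks of 4 in all as in Jund. Their distances on the standardised scale were 0.067, 0.21 and 0.23 among 5987 genes compared in 1 library.

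Base composition moved with the presence of a near-TSS peak. Of the 18539 genes, 15165 had a promoter sequence; the median share of G and C in its 250 bases was 62.4% for the 5010 with a near-TSS peak and 54.0% for the 10155 without. The share of genes with a near-TSS peak went from 6.02% (4.92 to 7.28) where G and C were at most 40% to 55.1% (52.8 to 57.4) above 70%. Fosl2, at 70.4% with 32 CpG, and Jund, at 68.4% with 32, had the promoters richest in CpG of the 5 members and the strongest peaks. Fosb, at 43.6% with 8 CpG, had a weak peak. Fos, Jun and Atf3 had no sequence here, so their peaks could not be set beside base composition. Junb at 66.0% and Fosl1 at 62.0% had no row, in the range where 48.2% of genes had a near-TSS peak. Across the 5010 genes the highest near-TSS signal went only weakly with G and C (Spearman's rho 0.12) and with the number of CpG (0.15). These are genes of 1 library, which are not replicates. The part of base composition in the members' peaks was not tested.

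**Figure D5:**
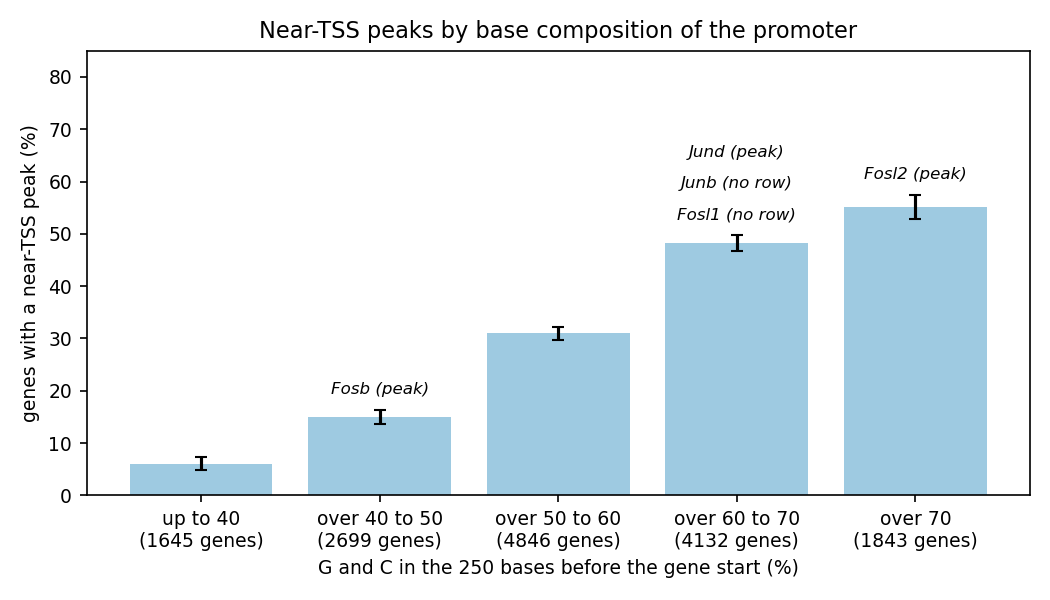
Near-TSS peaks by promoter composition: the x axis bins genes by the percentage of G and C in the 250 bases before the start, the bars give the percentage of genes with a near-TSS peak with exact 95% intervals, and names mark the bins of the 5 AP-1 subunit genes with a sequence. Bars climb from 6.02% to 55.1%, with Fosb in a low bin and Jund, Junb, Fosl1 and Fosl2 in the upper bins.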

How the data were processed

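ChIP-seq peak lists of 4 precipitated libraries and 1 annotated table were used; the 2 inputs were not analysed here. Cells were crosslinked with 1% formaldehyde for 10 min, per the labels' protocols. The deposited lists carry a signal per peak and a −log10 q-value, in narrowPeak columns; their names point to the spp caller, with settings not given in the sources used here. Tools listed in the submitters' processing notes are BWA 0.7.5a, FastQC 0.11.2, ChIPseeker, DiffBind and HOMER, and the build is rn5. The authors deposited the table with gene, annotation and distance to the TSS.

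Rows of the 8 symbols were joined to the α1ACT 1804 list by chromosome and start minus 1, and every row found its signal. Background genes were the 18539 protein-coding genes with a curated transcript in RefSeq GRCr8, matched by gene ID (14269 of the table's 14390 genes matched the reference), from which only names, order and promoter sequences were used. Genes without a row count as without a peak. Percentiles and exact intervals were computed with scipy 1.17.1 and pandas 2.3.3, in Python 3.11.15, and the counting was tested on simulated data. Named genes were the 8 members, the 2 strongest of each list and the 3 most like the strongest member; other genes named were chosen after their values were seen, and 1 gene that the rule selects is not reported here. The members, lists and settings were chosen with earlier results of these data known. The alternatives changed the TSS distance, signal limit, merging, overlap, background and summary of a gene's peaks.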

Additional observations from a re-analysis of the deposited data

How the results depend on the processing

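The number of AP-1 subunit genes with a near-TSS peak, 6, was 5 within 500 bp, where Atf3 at 505 bp was lost, and 6 within 3000 bp, with peaks merged or with any assigned peak. Counting only peaks above the table's median signal it was 3, and 2 with the highest 10%, against 26.9% and 15.1% of all protein-coding genes. That background, 32.9%, was 29.3% within 500 bp, 39.6% within 3000 bp and 43.2% over genes named in the table. The 11 near-TSS peaks became 7 within 500 bp and 16 within 3000 bp. Summing the near-TSS signals gave 8.999 for Fos, 5.24 for Fosb and 22.1 for Fosl2, and their median, like the highest within 500 bp, gave 7.05 for Fosl2; Jund was the highest under each of the 4 summaries. Of 39 alternatives 26 stayed within 1.5 times the main value or, for the background share, inside its interval. No value could be given for Atf3 within 500 bp. No paired analysis was possible because each group has 1 library. Depth is unknown and limits which weak peaks could be listed.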
